A study of Mus musculus with 64 samples.

Results

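The SLC25 mitochondrial carrier family was followed in 2 fat depots of the mouse, brown fat (BAT) and the epididymal white fat (eWAT). Its members were taken as every protein-coding gene whose mouse symbol begins with Slc25a and a digit, which gave 47 genes among the 52636 gene identifiers of the count table. The gene for the mitochondrial NAD+ carrier, *Slc25a51*, was among them. The mice were WT, which were Cre-negative littermates, or FANKO, in which loxP sites flank part of *Nampt* and Cre is driven by the adiponectin promoter, so that the enzyme of NAD+ salvage is lost in fat cells and not in the other cells of the depot. All were males of 2 to 4 months on chow, and each group of depot, genotype and time point (ZT 6, ZT 10, ZT 18 or ZT 22, in hours after lights on) held 4 libraries of total RNA, 64 in all. Values are CPM, read counts scaled for library size and composition, and a gene was called at an adjusted p below 0.01 over all 20249 genes tested. Nothing in the labels says how animals were shared between depots, and p-values measure the spread between these libraries.

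Carriers of this family are encoded in the nucleus, made in the cytosol and inserted into the inner mitochondrial membrane, most of them by the TIM22 machinery. Each moves a set of small molecules, such as adenine nucleotides, phosphate, citrate, amino acids, acylcarnitines or cofactors, between cytosol and matrix. In brown fat they feed and drain an oxidative matrix that burns fatty acids for heat. The family also exports citrate for fatty acid synthesis. The uncoupling protein *Ucp1*, the marker of brown fat, belongs to the same protein family under another symbol.

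Start-site sequences of the members are shown here because several of them had daily rhythms, and the canonical E-box (CACGTG, the same on both strands) is the site of the CLOCK:BMAL1 activator. RefSeq start sites on GRCm38.p6 gave 46 windows for 36 of the members, each of 300 bases from 250 before to 50 after the start. The E-box letters stood in 8 of these 46 windows (17.4%) and in 7.15% of all 32851 windows. Overlapping windows of *Slc25a14* hold the same E-box, so that site is counted more than once, and 7 members held an E-box. Of 14 members that were rhythmic in at least 1 combination of depot and genotype, 9 had a window, and 3 of these held an E-box (*Slc25a15*, *Slc25a33* and *Slc25a36*). Of the other 27 members with a window, 4 did. The rhythm call of *Slc25a15*, in WT BAT, was lost without replicate 1, 2 or 3 (adjusted p from 0.0195 to 0.0478 by edgeR). It was also lost without the BAT libraries high in skeletal muscle markers (adjusted p = 0.0119). *Slc25a25*, whose rhythm differed between the genotypes in eWAT, had a cAMP response element (TGACGTCA, 1.79% of all windows) and a D-box (TTANGTAA, 2.32%) in 1 of its windows. The window of *Slc25a36* also held a cAMP response element. *Slc25a34*, with the largest fall in FANKO BAT, held an estrogen-related receptor element (AAGGTCA, 4.72%), and the NRF1 site, present in 0.971% of all windows, was in none of the members' windows. Both strands were searched, these motifs do not overlap in the windows shown, and a match says only that the letters are present. All 5 windows lie on the minus strand and run 5′ to 3′, with motif letters in capitals. They are chr4:149774218-149774517 (*Slc25a33*), chr9:97110992-97111291 (*Slc25a36*), chr8:22398228-22398527 (*Slc25a15*), chr2:32424017-32424316 (*Slc25a25*) and chr4:141623785-141624084 (*Slc25a34*).
Slc25a33: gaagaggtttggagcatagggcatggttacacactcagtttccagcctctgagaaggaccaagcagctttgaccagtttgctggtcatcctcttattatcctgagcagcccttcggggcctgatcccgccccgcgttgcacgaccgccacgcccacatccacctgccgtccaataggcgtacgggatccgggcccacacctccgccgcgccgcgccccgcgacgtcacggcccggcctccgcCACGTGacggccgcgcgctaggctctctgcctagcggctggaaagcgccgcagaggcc
Slc25a36: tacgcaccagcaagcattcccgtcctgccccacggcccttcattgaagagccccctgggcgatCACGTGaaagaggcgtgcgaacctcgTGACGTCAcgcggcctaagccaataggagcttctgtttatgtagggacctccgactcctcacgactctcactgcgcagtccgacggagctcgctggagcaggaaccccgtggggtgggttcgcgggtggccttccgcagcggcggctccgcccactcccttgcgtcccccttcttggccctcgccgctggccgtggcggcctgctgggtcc
Slc25a15: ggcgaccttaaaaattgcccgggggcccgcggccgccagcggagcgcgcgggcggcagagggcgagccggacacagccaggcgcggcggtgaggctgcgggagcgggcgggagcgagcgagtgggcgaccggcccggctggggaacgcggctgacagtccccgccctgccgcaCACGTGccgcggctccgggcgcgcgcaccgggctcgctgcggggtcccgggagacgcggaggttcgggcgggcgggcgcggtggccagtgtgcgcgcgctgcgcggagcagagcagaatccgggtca
Slc25a25: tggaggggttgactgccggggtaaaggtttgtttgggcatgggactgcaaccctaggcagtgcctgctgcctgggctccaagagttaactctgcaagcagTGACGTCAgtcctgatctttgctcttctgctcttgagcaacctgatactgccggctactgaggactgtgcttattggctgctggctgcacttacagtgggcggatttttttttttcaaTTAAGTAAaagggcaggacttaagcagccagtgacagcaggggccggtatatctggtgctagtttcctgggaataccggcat
Slc25a34: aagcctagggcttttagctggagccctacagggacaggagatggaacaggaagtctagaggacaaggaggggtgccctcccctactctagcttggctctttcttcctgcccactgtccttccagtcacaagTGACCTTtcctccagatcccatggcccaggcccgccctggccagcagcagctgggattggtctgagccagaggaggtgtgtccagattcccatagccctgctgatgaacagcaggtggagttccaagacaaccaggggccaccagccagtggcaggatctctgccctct

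*Nampt* itself was checked across the libraries and was lower in FANKO BAT (log2 fold change −2.31, SE 0.07, adjusted p = 1.09e-36 by edgeR) and in FANKO eWAT (−0.50, SE 0.07, adjusted p = 4.67e-09). Its log2 means in eWAT, FANKO minus WT, differed by −0.03 (ZT 6), −0.25 (ZT 10), −1.08 (ZT 18) and −0.58 (ZT 22). Gene-level *Nampt* counts were thus about the same in both genotypes at ZT 6. Such counts do not separate intact transcripts from those lacking the floxed part, so they do not measure how far the gene was lost. Total counts ran from 6117343 to 30544847 per library. Transcripts encoded by mitochondrial DNA made up 24.6% of WT BAT counts and 14.7% of FANKO BAT counts as medians, against 6.55% (WT) and 10.7% (FANKO) for eWAT. TMM scaling was used, and scaling by library size alone moved the median log2 fold change of all genes from 0.00 to 0.58 in BAT and from −0.02 to −0.27 in eWAT. Summed brown adipocyte markers fell from a median of 7610 to 2465 CPM between WT and FANKO BAT, while macrophage markers went from 95.0 to 665 CPM and lymphocyte markers from 2.27 to 35.4 CPM. In eWAT the macrophage markers stood at 693 CPM in WT and 688 CPM in FANKO mice. White adipocyte markers there went from 2777 to 786 CPM, and brown adipocyte markers from 20.51 to 62.96 CPM, without overlap in either. General adipocyte markers went from 12020 to 6504 CPM in BAT, without overlap, and from 13860 to 14830 CPM in eWAT, with overlap. Fibroblast and progenitor markers went from 270.3 to 580.0 CPM in BAT, with overlap, and from 1348 to 769.9 CPM in eWAT, without. Skeletal muscle markers exceeded 100 CPM in 7 BAT libraries (4 WT, 3 FANKO), and epididymal markers exceeded 10 CPM in 7 eWAT libraries (2 WT, 5 FANKO). In whole tissue, fewer cells of a type and less RNA per cell cannot be told apart.

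Of the 47 members, 44 passed the filter on low counts. The ones that did not were *Slc25a21* (at most 52 reads in any library), *Slc25a41* (at most 9) and *Slc25a54* (at most 4). Together with *Slc25a2*, *Slc25a31* and *Slc25a43*, these made 6 members with a median below 1 CPM in every combination of depot and genotype. All members together took a median of 5792 CPM in WT BAT (4789 to 6443 over 16 libraries) and 4142 CPM in FANKO BAT (2976 to 4687). They took 2130 CPM in WT eWAT (1588 to 3018) and 4546 CPM in FANKO eWAT (3738 to 5432). The summed level was thus lower in every FANKO BAT library than in every WT BAT library, and higher in every FANKO eWAT library than in every WT eWAT library. This sum weighs members by their reads. *Slc25a1* alone held a median of 17.65% of the family's reads in WT eWAT and 41.11% in FANKO eWAT. In BAT it held 15.33% (WT) and 30.45% (FANKO). As an unscaled share of all counts the family held 0.421% in WT BAT and 0.436% in FANKO BAT, and with the mitochondrial genome left out 0.565% and 0.514%.

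Compared per length of exon, in RPKM, the citrate carrier *Slc25a1* had the highest level of the family in WT mice in both depots. It stood at a median of 416 RPKM in BAT (118 to 562) and 176 RPKM in eWAT (60.7 to 320). The adenine nucleotide carriers *Slc25a5* and *Slc25a4* came next, with 256 and 184 RPKM in BAT and 93.6 and 82.9 RPKM in eWAT. The acylcarnitine carrier *Slc25a20* followed in BAT, at 160.0 RPKM, and stood at 10.6 RPKM in eWAT. The dicarboxylate carrier *Slc25a10* followed in eWAT, at 55 RPKM, and stood at 8.93 RPKM in BAT. *Slc25a51* came after *Slc25a20* in WT BAT with 115 RPKM (87.6 to 140), against 20.1 RPKM in WT eWAT. Each neighbour in the first 6 ranks of both depots overlapped the next in its range over 16 libraries, so the order is that of the means.

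**Figure D1:**
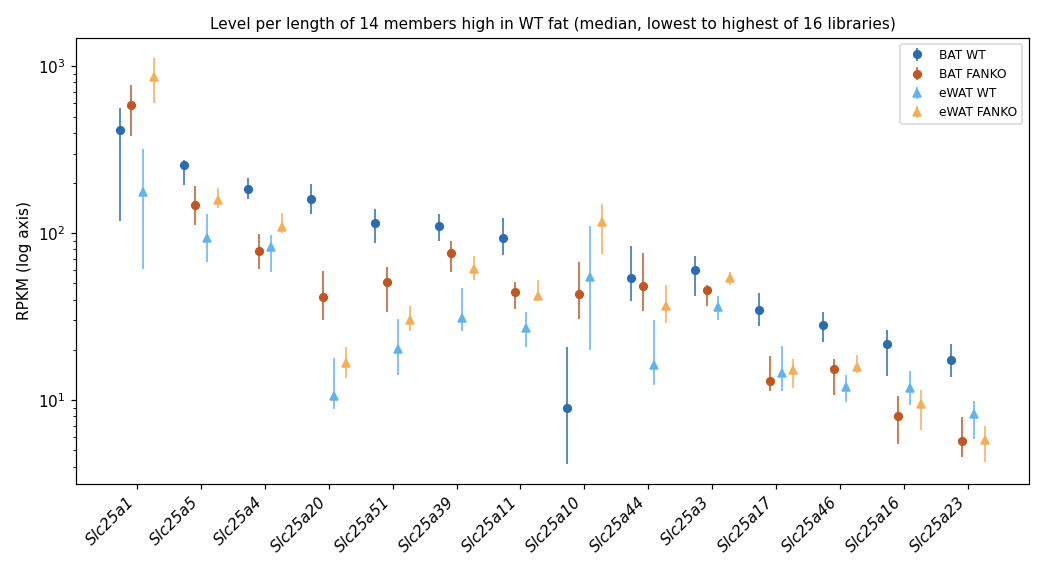
Level per length (RPKM, log axis) of 14 members among those with the highest means in WT fat. Points are medians and bars run from the lowest to the highest of 16 libraries. Slc25a20 has medians of 160.0 RPKM in WT BAT and 10.6 RPKM in WT eWAT, and Slc25a10 stands lower in WT BAT (8.93 RPKM) than in WT eWAT (55 RPKM).

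The depots of WT mice differed in most members. Of the 44 tested, 37 were called (84.1%, against 73.7% of all genes), with 26 higher in BAT and 11 lower, where 32.7% and 41.1% of all genes were called. The median log2 difference, BAT minus eWAT, was 0.76 over the members and −0.11 over all genes. Under library size scaling the split was 19 higher and 19 lower, with a median of all genes of −0.86. All 9 members of the NAD, nucleotide and cofactor group were higher in BAT, 7 of them by more than 2-fold. This did not hold for all 9 with library size scaling, where *Slc25a16* was not called (log2 difference 0.145, adjusted p = 0.0553 by edgeR). The largest differences toward BAT were in *Slc25a34* (log2 difference 5.05, SE 0.32), *Slc25a48*, a choline carrier (4.98, SE 0.17), *Slc25a20* (3.77, SE 0.09) and the coenzyme A carrier *Slc25a42* (3.41, SE 0.11). The largest toward eWAT were in *Slc25a10* (−2.69, SE 0.16), the aspartate/glutamate carrier *Slc25a13* (−2.55, SE 0.23), and the ATP-Mg/phosphate carriers *Slc25a24* (−2.30, SE 0.08) and *Slc25a25* (−2.30, SE 0.12). *Slc25a48* had a median of 22.7 CPM in WT BAT and 0.655 CPM in WT eWAT.

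Between the depots of FANKO mice the members lay closer together. The comparison was added after the data were examined, and it called 25 of 44 members (56.8%, against 59.7% of all genes), 14 higher in BAT and 11 lower, where 28.1% and 31.6% of all genes were called. The median log2 difference was 0.01. Of the 8 members with the largest WT differences, 6 were called in the same direction at a smaller size, among them *Slc25a20* (1.39, SE 0.08), *Slc25a48* (2.15, SE 0.14), *Slc25a42* (1.86, SE 0.12) and *Slc25a10* (−1.33, SE 0.15). The other 2 were not called, *Slc25a34* at 0.68 (SE 0.33, adjusted p = 0.0605) and *Slc25a13* at 0.30 (SE 0.19, adjusted p = 0.165). *Slc25a4* had a log2 difference of 1.17 (SE 0.06) in WT and −0.47 (SE 0.06) in FANKO mice, so its order between the depots turned. *Slc25a11*, the oxoglutarate carrier, stood at 1.79 (SE 0.05) in WT and 0.01 (SE 0.05, not called) in FANKO mice.

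**Figure D2:**
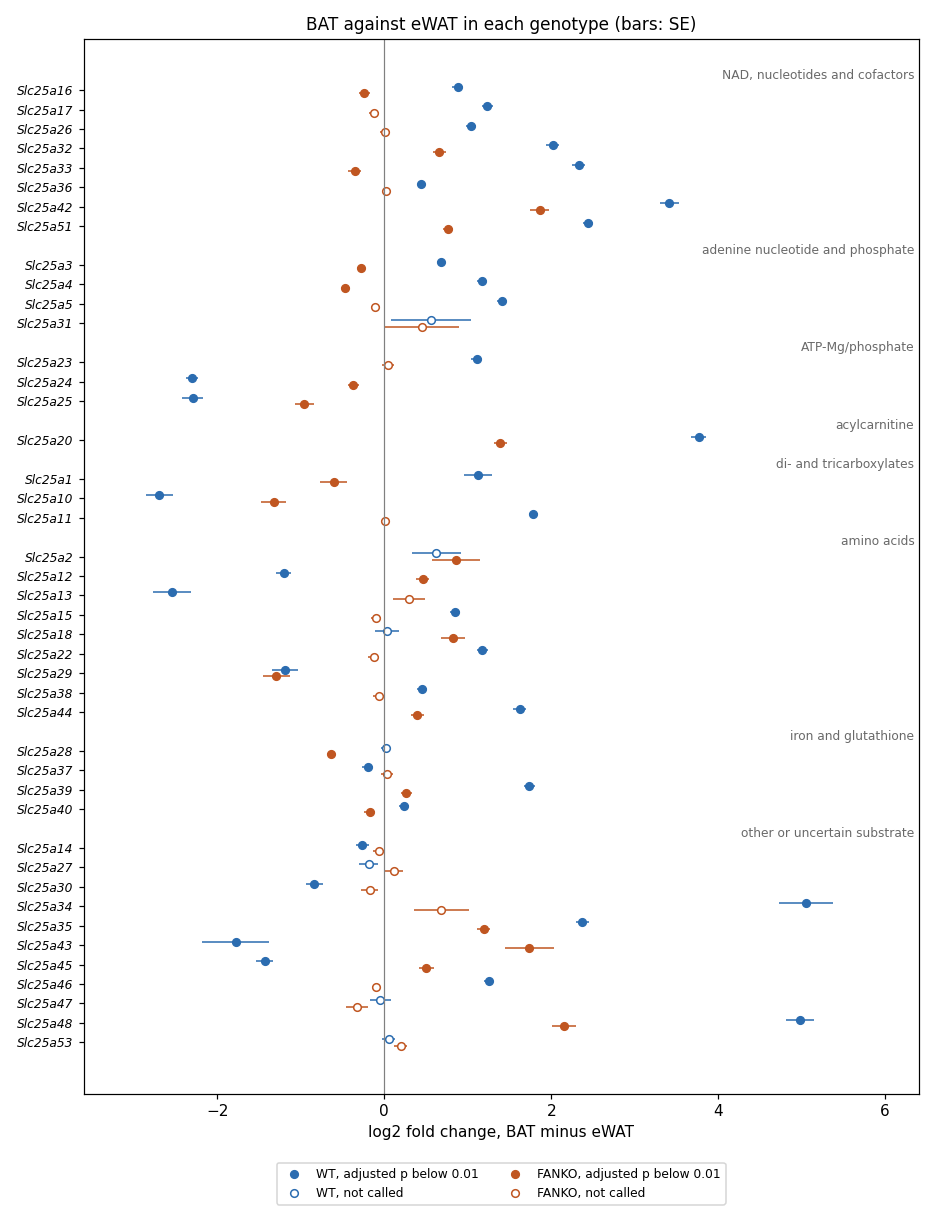
Log2 difference between BAT and eWAT for tested members, in WT (blue) and FANKO (orange) mice, by function group. Bars are SE and filled points are called at an adjusted p below 0.01. The blue points of the NAD, nucleotide and cofactor group all lie above 0, and Slc25a4 lies at 1.17 in WT and −0.47 in FANKO mice.

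In BAT, most carriers were lower in FANKO mice. Of the 44 members tested, 39 were called (88.6%, against 67% of all genes), 11 higher and 28 lower, where 33.1% of all genes were called higher and 33.9% lower. The median log2 fold change was −0.38 over the members and 0.00 over all genes. The 16 WT and 16 FANKO libraries did not overlap in 22 members (50%, against 22.6% of all genes), 5 higher and 17 lower, where 12.5% of all genes were higher and 10% lower. Without the BAT libraries high in skeletal muscle markers, 36 were called, 11 higher and 25 lower. Scaling by library size alone gave 21 higher and 17 lower, with the median of all genes at 0.58.

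In eWAT the direction was mostly opposite. There 28 of 44 members were called (63.6%, against 50.3% of all genes), 20 higher and 8 lower in FANKO mice, where 27.6% of all genes were called higher and 22.8% lower. The median was 0.15 over the members and −0.02 over all genes. In 9 members the WT and FANKO libraries did not overlap, all of them higher in FANKO mice (20.5%, against 5.9% of all genes, of which 4.57% higher and 1.33% lower). Without the eWAT libraries high in epididymal markers 26 were called, 18 higher and 8 lower. With library size scaling the split was 16 higher and 15 lower.

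Taking both depots, 18 members were lower in FANKO BAT and higher in FANKO eWAT (40.9%, against 11.6% of all genes). This count was 9 with library size scaling and lay between 15 and 20 under every other setting tried. The 2 comparisons share no libraries, but all libraries were fitted together. The labels do not say whether both depots came from the same animals, so the comparisons may not be independent. *Slc25a1* and *Slc25a10* were higher in both depots, and *Slc25a16*, *Slc25a23*, *Slc25a29*, *Slc25a42* and *Slc25a47* were lower in both. *Slc25a13* and *Slc25a25* were higher in BAT and lower in eWAT. In BAT alone 7 were higher (*Slc25a12*, *Slc25a14*, *Slc25a18*, *Slc25a24*, *Slc25a37*, *Slc25a43* and *Slc25a45*) and 5 lower (*Slc25a15*, *Slc25a17*, *Slc25a34*, *Slc25a38* and *Slc25a40*), and in eWAT alone *Slc25a30* was lower. *Slc25a2*, *Slc25a27*, *Slc25a31* and *Slc25a53* were called in neither. The genotype effect differed between the depots in 36 of 44 members by a direct test (81.8%, against 64.3% of all genes), with 27 lower in BAT than in eWAT and 9 higher, where 32.1% of all genes were lower and 32.2% higher. With library size scaling these were 19 lower and 17 higher. Those with the smallest p were *Slc25a33*, *Slc25a11*, *Slc25a20* and *Slc25a51*.

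**Figure D3:**
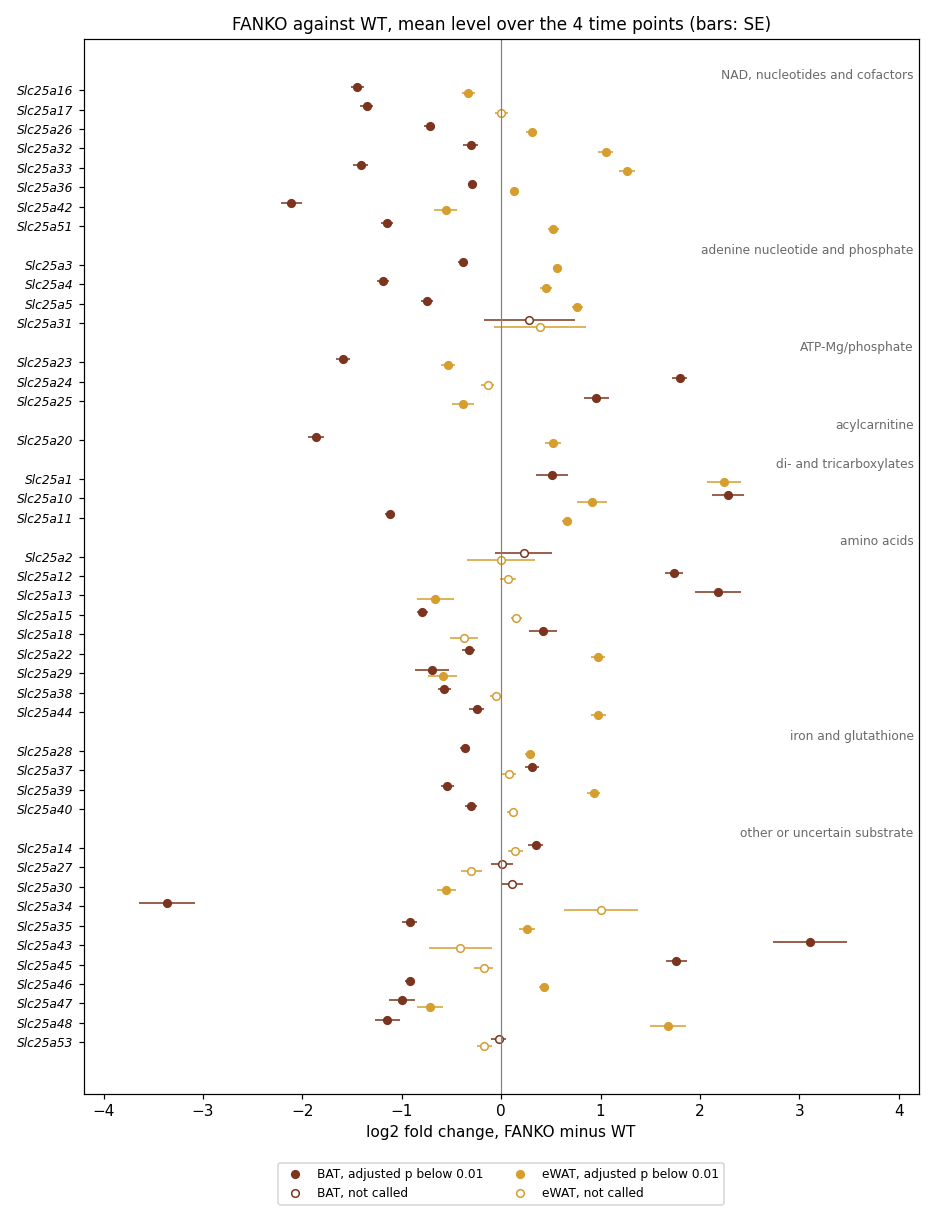
Log2 fold change, FANKO minus WT, of tested members in BAT (brown) and eWAT (yellow), by function group. Bars are SE and filled points are called at an adjusted p below 0.01. Slc25a33 has its brown point at −1.42 and its yellow point at 1.27, and Slc25a34 (−3.36) and Slc25a43 (3.11) have the largest changes in BAT.

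Carriers of NAD, nucleotides and cofactors changed in 1 direction in BAT. All 9 were lower in FANKO BAT, with a median log2 fold change of −1.15, and 6 fell by more than 2-fold. In FANKO eWAT 6 were higher and 2 lower. With library size scaling 6 remained lower and 2 were higher in BAT, against 4 higher and 3 lower in eWAT. *Slc25a51*, which carries NAD+ into the matrix, had 483 to 772 CPM in WT BAT with a median of 631 CPM. It had 185 to 346 CPM in FANKO BAT with a median of 280.5 CPM, so the groups did not overlap. Its log2 fold change in BAT was −1.15 (SE 0.06, adjusted p = 1.63e-26 by edgeR). In eWAT it had a median of 111 CPM in WT (78.4 to 168) and 167 CPM in FANKO mice (142 to 202), and these ranges overlapped. Its log2 fold change there was 0.53 (SE 0.06, adjusted p = 7.34e-12), and the difference between the depots was −1.68 (SE 0.08). With library size scaling its log2 fold change was −0.57 in BAT and 0.28 in eWAT. Exons of *Slc25a51* overlap a small RNA gene, *Gm25692*, on the same strand.

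*Slc25a42*, the coenzyme A carrier, had a median of 92.0 CPM in WT BAT (46.3 to 149) and 19.8 CPM in FANKO BAT (11.3 to 33.8). Every FANKO library lay below every WT library, with a log2 fold change of −2.11 (SE 0.11). It also fell in eWAT, from a median of 7.69 to 5.55 CPM (−0.56, SE 0.12), where the groups overlapped. *Slc25a33*, a carrier of pyrimidine nucleotides, had 20.5 to 46.4 CPM in WT BAT and 5.97 to 17.6 CPM in FANKO BAT (−1.42, SE 0.08). In eWAT it ran the other way without overlap, from 4.19 to 10.8 CPM in WT and from 11 to 21.1 CPM in FANKO mice (1.27, SE 0.08). The difference of these effects was −2.68 (SE 0.11), the one with the smallest p of the family. The BAT change of *Slc25a33* was −0.84 with library size scaling. *Slc25a16*, related to the coenzyme A carriers, fell by 1.45 on the log2 scale in BAT (SE 0.06) and by 0.33 in eWAT (SE 0.06), or by 0.88 and 0.57 with library size scaling. The peroxisomal cofactor carrier *Slc25a17* fell by 1.36 in BAT (SE 0.07) and had a log2 fold change of 0.00 (SE 0.06) in eWAT, not called.

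The S-adenosylmethionine carrier *Slc25a26* fell by 0.72 in BAT (SE 0.06) and rose by 0.31 in eWAT (SE 0.06), and neither was called with library size scaling (−0.13 and 0.07). *Slc25a36*, the other pyrimidine nucleotide carrier, changed by −0.30 in BAT and 0.13 in eWAT (SE 0.04 each). *Slc25a32*, which carries folate and FAD, had a log2 fold change of −0.31 in BAT (SE 0.07), which was 0.27 with library size scaling, and 1.05 in eWAT (SE 0.08). Its BAT call was lost without the libraries high in skeletal muscle markers (−0.23, adjusted p = 0.0219). Beside these falls in BAT stand the lower brown adipocyte markers and the higher macrophage and lymphocyte markers given above, whose part in them was not tested.

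Genes that use the carried cofactors were counted from lists written with earlier results of these data known. Beside these and the groups below stand the shares of all genes, 33.1% called higher and 33.9% lower in BAT. In eWAT these shares were 27.6% and 22.8%. Of 5 genes of mitochondrial NAD and NADP metabolism, 4 were lower in FANKO BAT and 3 higher in eWAT, or 3 lower in BAT and 2 higher in eWAT with library size scaling. *Nadk2*, the mitochondrial NAD kinase, changed by −1.35 (SE 0.06) in BAT and 0.26 (SE 0.06) in eWAT. *Sirt3*, a mitochondrial deacylase that consumes NAD+, changed by −1.55 (SE 0.06) in BAT and −0.18 (SE 0.07, not called) in eWAT. *Nnt*, the transhydrogenase, rose in BAT (1.70, SE 0.16), the only one of the 5 to do so.

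The adenine nucleotide and phosphate carriers, which exchange ADP for ATP and bring in phosphate for ATP synthesis, moved in opposite directions in the depots in 3 of 4 members. *Slc25a4*, the main isoform of heart and muscle, had 377 to 504 CPM in WT BAT and 143 to 233 CPM in FANKO BAT, without overlap (−1.19, SE 0.06). In eWAT it had 138 to 230 CPM in WT and 237 to 312 CPM in FANKO mice, again without overlap (0.45, SE 0.06). Without the BAT libraries high in skeletal muscle markers its change in BAT was −1.10 (SE 0.07). *Slc25a5*, the widely expressed isoform, had 321 to 450 CPM in WT BAT and 184 to 314 CPM in FANKO BAT (−0.75, SE 0.06). In eWAT it had 111 to 214 CPM in WT and 232 to 308 CPM in FANKO mice (0.77, SE 0.06). Its groups overlapped in neither depot. Under library size scaling the BAT changes were −0.61 for *Slc25a4* and −0.17 for *Slc25a5*, both still called, and the eWAT change of *Slc25a4* was 0.21. The phosphate carrier *Slc25a3* went from a median of 334 to 254 CPM in BAT with overlap (−0.39, SE 0.05), a change that was 0.20 (SE 0.05) with library size scaling. In eWAT it went from 200.4 to 298 CPM without overlap (0.57, SE 0.05). *Slc25a31*, the germ cell isoform, had at most 17 reads in any library and was not called in either depot.

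**Figure D4:**
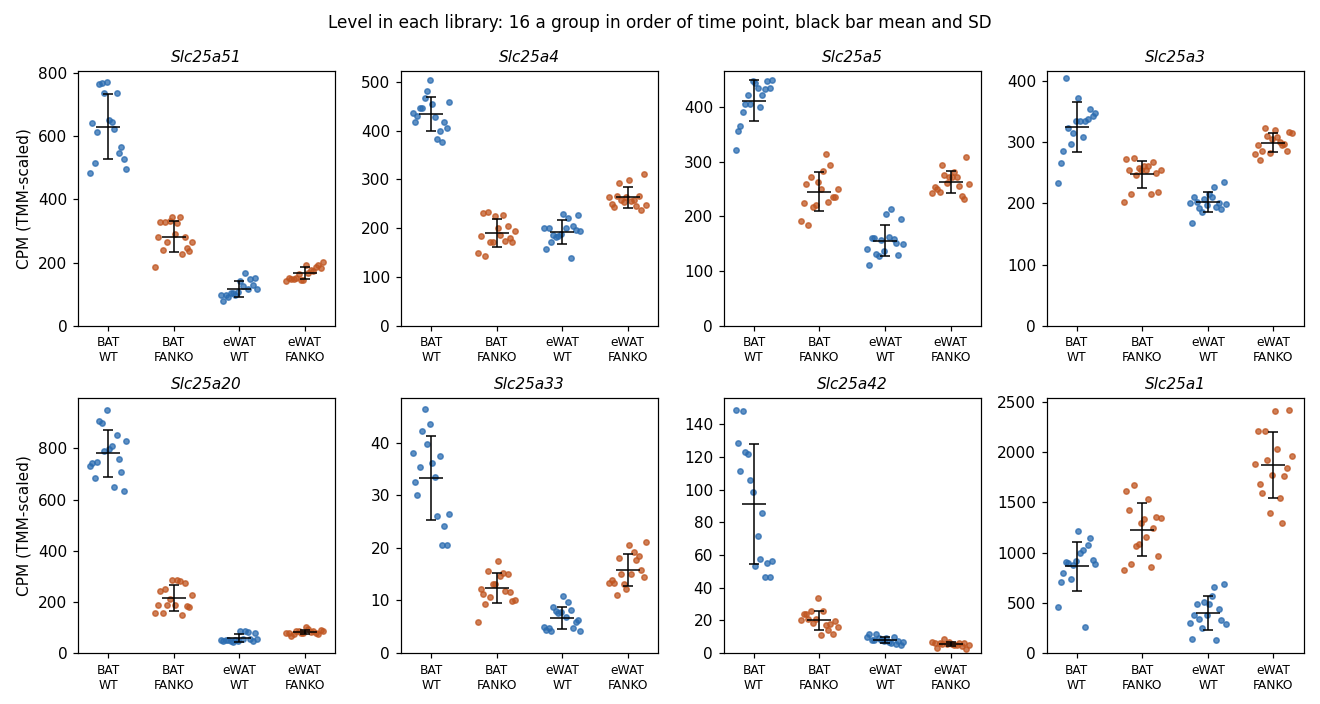
CPM of 8 members in every library, 16 in each combination of depot and genotype and ordered by time point within it. The black bar is the mean with its SD, and each axis starts at 0. Slc25a51, Slc25a4, Slc25a5, Slc25a20, Slc25a33 and Slc25a42 do not overlap between WT and FANKO BAT, while Slc25a3 and Slc25a1 do.

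*Slc25a20*, which exchanges acylcarnitines for carnitine so that long-chain fatty acids reach beta-oxidation, had 635 to 951 CPM in WT BAT. In FANKO BAT it had 147 to 287 CPM, without overlap, and the log2 fold change was −1.86 (SE 0.08, adjusted p = 2.46e-29 by edgeR). In eWAT the median went from 51.1 to 81.4 CPM (0.52, SE 0.08, or 0.28 with library size scaling), and the difference between the depots was −2.38 (SE 0.11). Its partners in the carnitine shuttle showed 3 of 4 lower in BAT and 3 of 4 higher in eWAT, or 1 higher and 1 lower in eWAT with library size scaling. *Cpt2*, the inner membrane transferase, changed by −1.84 (SE 0.07) in BAT and 0.22 (SE 0.07) in eWAT. *Cpt1b*, the muscle-type outer transferase, changed by −1.54 (SE 0.09) in BAT and 2.5 (SE 0.17) in eWAT. *Cpt1a*, the liver-type enzyme, ran the other way, at 1.17 (SE 0.07) in BAT and −0.50 (SE 0.07) in eWAT.

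Among the carriers of di- and tricarboxylates, *Slc25a1* and *Slc25a10* were higher in FANKO mice in both depots. *Slc25a1*, which exports citrate, had a median of 901 CPM in WT BAT (255 to 1217) and 1268 CPM in FANKO BAT (830.2 to 1670), with a log2 fold change of 0.51 (SE 0.16, adjusted p = 0.00372 by edgeR). It was 1.10 (SE 0.15) with library size scaling. The BAT call was lost without replicate 1 (adjusted p = 0.0212) and without replicate 2 (adjusted p = 0.0202) of all groups. In eWAT it had 131 to 692 CPM in WT and 1299 to 2425 CPM in FANKO mice, without overlap, the largest rise of the family there (2.24, SE 0.17). *Slc25a10* had 14.4 to 72.2 CPM in WT BAT and 106 to 232 CPM in FANKO BAT, without overlap (2.28, SE 0.16). In eWAT it went from a median of 190.0 to 403 CPM (0.91, SE 0.15) with overlap. *Slc25a11*, which exchanges oxoglutarate for malate, fell by 1.12 on the log2 scale in BAT (SE 0.05) and rose by 0.66 in eWAT (SE 0.05). It was without overlap in both depots, and its BAT change was −0.54 with library size scaling.

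Enzymes that make citrate or act downstream of its export were lower in FANKO BAT in 3 of 5 genes and higher in eWAT in 5 of 5, in a list written with earlier results known, or 1 lower and 1 higher in BAT with library size scaling. *Acly*, which splits citrate in the cytosol, had a log2 fold change of −0.47 (SE 0.22, not called) in BAT and 1.91 (SE 0.22) in eWAT. *Fasn*, the fatty acid synthase, changed by −0.90 (SE 0.19) in BAT and 1.24 (SE 0.19) in eWAT. *Cs*, the citrate synthase, changed by −1.46 (SE 0.08) in BAT and 0.81 (SE 0.08) in eWAT.

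The ATP-Mg/phosphate carriers, which set the adenine nucleotide content of the matrix under calcium control, split between their isoforms. *Slc25a23* fell in BAT from 73.3 to 114 CPM in WT to 24.1 to 42 CPM in FANKO mice, without overlap (−1.60, SE 0.07). It also fell in eWAT (−0.53, SE 0.07), and its BAT change was −1.01 with library size scaling. *Slc25a24* had 4.11 to 6.52 CPM in WT BAT and 10.9 to 24 CPM in FANKO BAT, without overlap (1.79, SE 0.08). In eWAT its log2 fold change was −0.14 (SE 0.07, not called), which was −0.38 (adjusted p = 4.49e-05) with library size scaling. *Slc25a25* rose in BAT from a median of 9.32 to 19.6 CPM (0.96, SE 0.12) and in eWAT its median went from 47.5 to 38.2 CPM (−0.38, SE 0.11). The eWAT call was lost without replicate 1, 2 or 3 (adjusted p from 0.0101 to 0.0368). *Slc25a41* was not tested.

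Amino acid carriers were mixed, with 3 higher and 5 lower of 9 in FANKO BAT and 2 higher and 2 lower in eWAT, the latter near the 27.6% and 22.8% of all genes. They were 5 higher and 1 lower in BAT with library size scaling. The aspartate/glutamate carrier isoforms of the malate-aspartate shuttle both rose in BAT. *Slc25a12* had 3.43 to 7.02 CPM in WT BAT and 11.5 to 21.7 CPM in FANKO BAT, without overlap (1.74, SE 0.09), and was not called in eWAT (0.07, SE 0.08). *Slc25a13* had at most 11 reads in any WT BAT library and 12 to 56 reads in FANKO BAT (2.18, SE 0.23), and it fell in eWAT (−0.66, SE 0.19), a call that was lost without replicate 2 (adjusted p = 0.0312) or 4 (adjusted p = 0.022). The aspartate aminotransferases of the same shuttle, *Got1* and *Got2*, rose in both depots. Their log2 fold changes were 1.05 (SE 0.11) and 1.39 (SE 0.06) in BAT, and 1.27 (SE 0.12) and 0.82 (SE 0.06) in eWAT. The malate dehydrogenase of the matrix, *Mdh2*, changed by −1.5 (SE 0.07) in BAT and 0.60 (SE 0.07) in eWAT.

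The glutamate carrier *Slc25a22* changed by −0.33 (SE 0.07) in BAT, which was 0.26 (SE 0.07) with library size scaling. In eWAT it had 26.2 to 47.1 CPM in WT and 51.6 to 84.0 CPM in FANKO mice, without overlap (0.97, SE 0.07). *Slc25a44*, the carrier of branched-chain amino acids, changed by −0.24 (SE 0.07) in BAT. This became 0.34 (SE 0.08) with library size scaling, and the call was lost in 6 of the other settings, among them the fits without replicate 2 (adjusted p = 0.0477) and without replicate 3 (adjusted p = 0.0221). In eWAT it rose by 0.98 (SE 0.08). The ornithine carrier *Slc25a15* fell in BAT (−0.79, SE 0.06, or −0.21 with library size scaling) and the basic amino acid carrier *Slc25a29* fell in both depots (−0.69, SE 0.17 in BAT and −0.59, SE 0.15 in eWAT). The BAT call of *Slc25a29* was lost with library size scaling (−0.12, adjusted p = 0.554) and without the libraries high in skeletal muscle markers (−0.41, adjusted p = 0.0324), and its eWAT call without replicate 2 (adjusted p = 0.0138). *Slc25a47*, which lies 163 bp from *Slc25a29* on chromosome 12, also fell in both (−1.0, SE 0.13 in BAT and −0.72, SE 0.13 in eWAT), by −0.42 in BAT with library size scaling.

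Of the iron and glutathione carriers, 3 of 4 were lower in FANKO BAT (1 higher) and 2 higher in eWAT, but with library size scaling 3 were higher in BAT and none lower. *Slc25a39*, needed for glutathione in the matrix, changed by −0.54 (SE 0.06) in BAT and 0.93 (SE 0.06) in eWAT, without overlap in either. The mitoferrins moved apart in BAT, with *Slc25a28* at −0.37 (SE 0.05) and *Slc25a37*, the isoform of red cell precursors, at 0.31 (SE 0.07). Erythroid markers went from a summed median of 403 CPM in WT BAT to 146 CPM in FANKO BAT. The 5 genes of heme and iron-sulfur synthesis that were listed were all lower in FANKO BAT and 4 were higher in eWAT, or 4 lower and 1 higher in BAT and 1 higher and 1 lower in eWAT with library size scaling.

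Members with other or uncertain substrates held the extremes in BAT, with 3 higher and 5 lower among the 11 tested (6 higher and 5 lower with library size scaling). The share called was 72.7%, near the 67% of all genes. *Slc25a34* had 3.86 to 50.2 CPM in WT BAT, with a median of 10.6 CPM, and 0.669 to 2.45 CPM in FANKO BAT. The groups did not overlap and the log2 fold change was −3.36 (SE 0.28). Without the libraries high in skeletal muscle markers it was −2.97 (SE 0.25). In eWAT it had a median of 0.331 CPM in WT and 0.798 CPM in FANKO mice and was not called (1.01, SE 0.37, adjusted p = 0.0176), but it was called in 4 other settings (adjusted p from 0.00251 to 0.00913). *Slc25a45* had 2.01 to 5.22 CPM in WT BAT and 6.78 to 16.1 CPM in FANKO BAT (1.76, SE 0.10), without overlap, and was called in eWAT with library size scaling only (−0.42).

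*Slc25a48* changed by −1.15 (SE 0.13) in BAT, or −0.56 with library size scaling, and by 1.68 (SE 0.19) in eWAT, where it had 4 to 30 reads in WT libraries. *Slc25a30* fell in eWAT (−0.55, SE 0.10) and was not called in BAT, where it was 0.70 (adjusted p = 9.24e-07) with library size scaling. *Slc25a46*, which sits in the outer membrane, changed by −0.91 (SE 0.05) in BAT and 0.43 (SE 0.05) in eWAT. *Slc25a43* rose in BAT (3.11, SE 0.37) from at most 4 reads in any WT library to between 1 and 27 in FANKO libraries, so its fold change rests on few reads and the groups overlapped. The rises of *Slc25a12*, *Slc25a13*, *Slc25a24*, *Slc25a43* and *Slc25a45* in FANKO BAT stand beside the higher macrophage and lymphocyte markers there, and the part of these cells in them was not tested.

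Family members under other symbols and the machinery around the carriers were counted in the same way. *Ucp1* changed by −1.80 (SE 0.23) in BAT, *Ucp3* by −0.83 (SE 0.10) in BAT and 1.45 (SE 0.11) in eWAT, and *Ucp2*, which macrophages also express, by 2.57 (SE 0.11) in BAT. Of 10 genes of the TIM22 import pathway, 9 were lower in FANKO BAT and 9 higher in FANKO eWAT. Of all genes, 33.9% were called lower in BAT and 27.6% higher in eWAT. With library size scaling the TIM22 genes were 3 lower and 2 higher in BAT, and 6 higher in eWAT. All 3 outer membrane pores of the VDAC type were lower in BAT and higher in eWAT, and none was called in BAT with library size scaling. The mitochondrial pyruvate carrier subunits *Mpc1* and *Mpc2*, which belong to another family, changed by −0.49 (SE 0.12) and −0.86 (SE 0.10) in BAT and by 2.00 (SE 0.12) and 1.18 (SE 0.10) in eWAT.

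Time of day was tested with a 24 h cosine in each combination of depot and genotype, and a rhythm is given by the peak-to-trough distance of the fitted curve in log2 units. In WT BAT, 10 of 44 members were rhythmic (22.7%, against 13.9% of all genes), and in FANKO BAT 1 was (2.84% of all genes). In WT eWAT 8 were rhythmic (9.38% of all genes) and in FANKO eWAT 2 (6.77%). In all, 14 members were rhythmic in at least 1 of the 4, and 30 in none. A direct test of the difference between genotypes called 4 members in BAT (2.76% of all genes) and 1 in eWAT (1.15%). It took cosine and sine together, so a call can reflect the size of a rhythm, its peak time or both. The distances were not compared by a test of their own. The count in WT BAT was 6 without replicate 2 of all groups, and the count of differences in BAT was 1 without replicate 1 or 2 and 2 without replicate 3. A rhythm called in WT and not in FANKO mice is not by itself shown to differ.

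*Slc25a32* was the only member called rhythmic in all 4. In WT BAT its 4 libraries had 43.5, 47.0, 47.6 and 53.5 CPM at ZT 6 and 60.9, 61.3, 61.8 and 64.8 CPM at ZT 10. At ZT 18 they had 122, 144, 147 and 162 CPM, and at ZT 22 94.9, 96.3, 131 and 167 CPM. All night-time values lay above all day-time values. In FANKO BAT the means were 56.1 ± 10.3, 61.9 ± 6.23, 92.4 ± 10.7 and 69.7 ± 8.94 CPM (SD, n = 4) at ZT 6, ZT 10, ZT 18 and ZT 22, a smaller span. The fitted distance was 1.59 in WT and 0.76 in FANKO BAT. The difference of rhythm was called (adjusted p = 5.32e-04 by edgeR), but not without replicate 1 (adjusted p = 0.01) or 2 (adjusted p = 0.0259). It was also not called without the libraries high in skeletal muscle markers (adjusted p = 0.0147). The rhythm in FANKO BAT was itself not called without replicate 1 (adjusted p = 0.0697) or 2 (adjusted p = 0.0227), without those libraries or with library size scaling. In eWAT the distances were 0.88 in WT and 1.5 in FANKO mice, and their difference was not called (adjusted p = 0.0867).

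*Slc25a22* peaked by day in WT BAT. Its libraries there had 92.6 to 122 CPM at ZT 6, 87.1 to 119 CPM at ZT 10, 61.6 to 72.3 CPM at ZT 18 and 46.9 to 55.2 CPM at ZT 22, so day and night did not overlap. In FANKO BAT the means lay between 57.6 ± 13.9 CPM at ZT 6 and 66.7 ± 8.76 CPM at ZT 10 (SD, n = 4). The fitted distance was 1.02 in WT BAT and 0.25 in FANKO BAT, and the difference of rhythm (adjusted p = 5.72e-05 by edgeR) was called under every setting tried for this gene. *Slc25a33* had a mean of 43.0 ± 2.75 CPM at ZT 10 and 22.9 ± 2.89 CPM at ZT 22 in WT BAT, and 13.2 ± 2.07 and 11.7 ± 2.34 CPM in FANKO BAT (SD, n = 4). Its fitted peak was at 11.9 h in WT and 15.2 h in FANKO BAT, with distances of 1.01 and 0.84. The difference of rhythm (adjusted p = 0.0082) was lost without each of the replicate numbers in turn (adjusted p from 0.0118 to 0.143). By edgeR it was also lost with library size scaling (adjusted p = 0.0148), with time as a factor (0.0214) and with separate fits for each depot (0.0292). The same held without the libraries high in skeletal muscle markers (0.0315). *Slc25a15* had distances of 0.52 in WT and 0.35 in FANKO BAT. Its difference of rhythm (adjusted p = 0.00401 by edgeR) was lost without replicate 1, 2 or 3 (adjusted p from 0.0307 to 0.0715). The call was also lost with library size scaling (0.0248), with time as a factor (0.013) and without the libraries high in skeletal muscle markers (0.0267).

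*Slc25a42* had a mean of 134 ± 18 CPM at ZT 6 and 51.1 ± 5.50 CPM at ZT 22 in WT BAT (SD, n = 4), a fitted distance of 1.24. In FANKO BAT it had 22.1 ± 1.92 and 16.3 ± 3.49 CPM at these times, and the difference between genotypes was not called (adjusted p = 0.183). *Slc25a51* was rhythmic in WT BAT (distance 0.76, adjusted p = 4.26e-04) and in WT eWAT (0.61, adjusted p = 1.93e-05). Its WT BAT libraries had 737 to 772 CPM at ZT 10 and 496 to 567 CPM at ZT 22, while WT eWAT had 97.8 to 106 CPM and 116 to 150 CPM at these times. The fitted peak was at 13.2 h in WT BAT and at 18.9 h in WT eWAT. In FANKO mice the distances were 0.51 in BAT and 0.35 in eWAT, not called, although the latter was called with library size scaling (adjusted p = 0.0094) and with separate fits for each depot (adjusted p = 0.00521), and the difference between genotypes was not called in either depot (adjusted p = 0.743 and 0.486). *Slc25a44* had distances of 0.76 in WT BAT and in WT eWAT, with fitted peaks at 18.6 h and 19.3 h. Its rhythm was not called in FANKO mice in the main fit. In FANKO BAT it was called with a stricter filter, with the replicate block and without replicate 4 (adjusted p from 0.00413 to 0.00838 by edgeR). DESeq2 also called it there (adjusted p = 0.00383). In FANKO eWAT it was called with the replicate block (adjusted p = 0.00956 by edgeR).

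*Slc25a25* was the member with a called difference of rhythm in eWAT. Its WT eWAT libraries had 27.9, 31.9, 35.0 and 38.5 CPM at ZT 6 and 26.6, 29.2, 34.3 and 39.4 CPM at ZT 10. At ZT 18 they had 58.4, 66.6, 70.8 and 80.0 CPM, and at ZT 22 55.5, 86.7, 112 and 119 CPM, so all night values lay above all day values. In FANKO eWAT the means were 40.8 ± 3.76, 34.0 ± 2.26, 45.6 ± 9.85 and 38 ± 5.98 CPM at the same time points (SD, n = 4). The distance was 1.57 in WT and 0.19 in FANKO eWAT (adjusted p of the difference of rhythm = 0.00307 by edgeR). The call was lost without replicate 1, 2 or 3 (adjusted p from 0.0325 to 0.101), without the libraries high in epididymal markers (adjusted p = 0.159) and with library size scaling (adjusted p = 0.0342). *Slc25a26* was rhythmic in FANKO eWAT (0.73) and not called in WT eWAT (0.19), and the difference was not called (adjusted p = 0.093). Its call in FANKO eWAT was lost without replicate 2 (adjusted p = 0.0169).

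**Figure D5:**
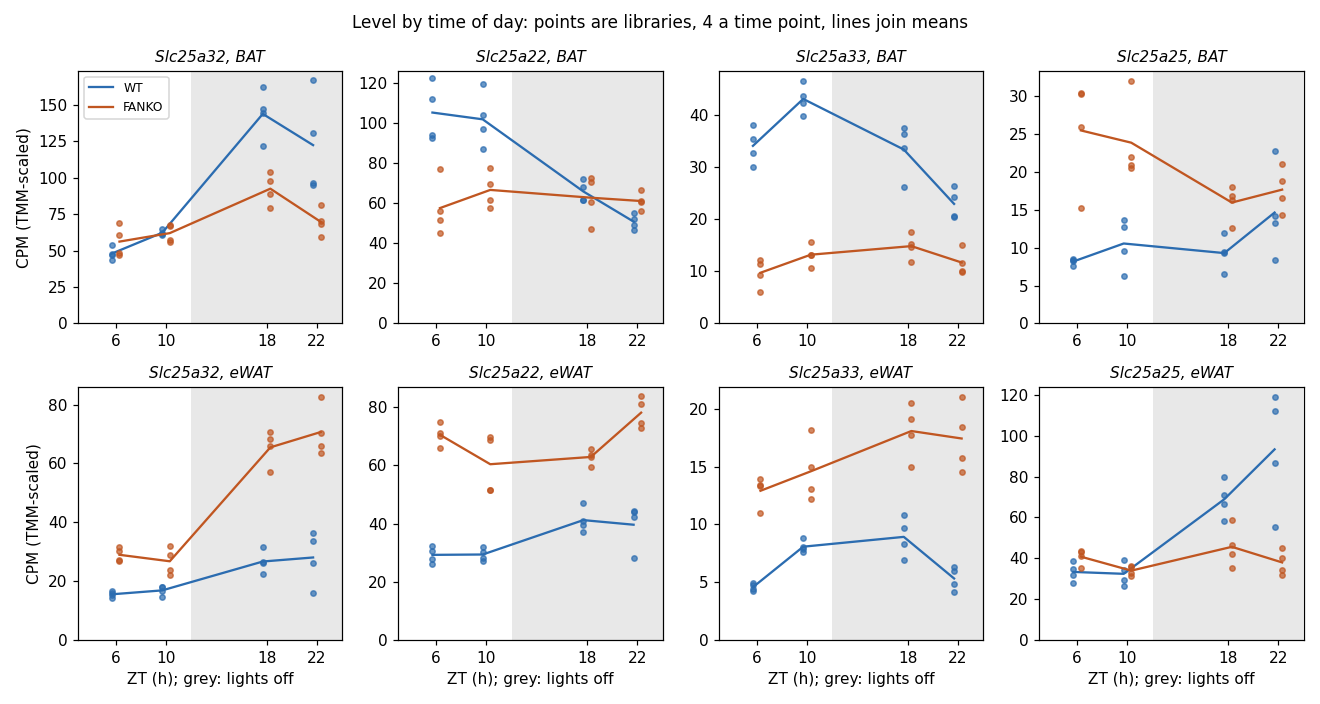
CPM of Slc25a32, Slc25a22, Slc25a33 and Slc25a25 by time of day in BAT (top) and eWAT (bottom). Points are libraries, 4 at each time point, lines join the means of WT (blue) and FANKO (orange) mice, and the grey area is the dark phase. WT Slc25a25 in eWAT rises at night to between 55.5 and 119 CPM at ZT 22 while FANKO libraries stay between 31.9 and 45.2 CPM.

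Reads shared with neighbours limit some of these values. The strand and multi-mapping options of the counting are not given in the sources used here. Exons of 2 members overlap another gene on the same strand (*Slc25a47* with *Mir345*, *Slc25a51* with *Gm25692*), and those of 12 members overlap a gene on the opposite strand, among them *Slc25a11* with *Rnf167*, *Slc25a25* with *Naif1*, *Slc25a26* with *Lrig1* and *Slc25a33* with *Gm13068*. *Slc25a4*, *Slc25a5* and the processed copies of *Slc25a5* are similar in sequence, so the split of reads between them is uncertain.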

How the data were processed

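Gene-level read counts from 64 total RNA libraries (16 groups of 4) were taken as the authors deposited them, raw and unscaled. Per the labels and the study's methods, reads of 38 bp were aligned with STAR 2.5.3a to GRCm38 and counted with featureCounts 1.5.3; strand and multi-mapping options are not given in the sources used here. Total counts were 6117343 to 30544847 per library, and this depth sets the precision for members with few reads. Symbols and positions come from GENCODE M21 and start-site sequences from RefSeq (GRCm38.p6).

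Genes were filtered by filterByExpr (minimum count 10, minimum total 15), which left 20249 tested and 32387 not tested. A 12-coefficient model with a mean and a 24 h cosine and sine for each depot and genotype was fitted with edgeR 4.0.16 (quasi-likelihood, TMM) in R 4.3.3 and tested on simulated data. P-values were adjusted by Benjamini-Hochberg over all genes and called below 0.01. Alternatives included limma 3.58.1, DESeq2 1.42.0, other scalings and filters, and leaving out each replicate number. The family's members, the function groups, the related gene lists and the marker lists were chosen with earlier results of these data known. The rule for members described singly took *Slc25a51*, the adenine nucleotide and phosphate carriers, the 5 largest called rises and falls per depot (mean log2 CPM of at least 1), the 4 smallest p for the difference between depots, the 4 largest WT depot differences each way, for each rhythm test the 3 members of smallest p, and the 4 highest levels per length in WT mice; other members were chosen after their values were seen. Some genes are counted in their groups but not reported singly or drawn here.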

Additional observations from a re-analysis of the deposited data

Results flagged for a closer look

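The genotype effect differed between BAT and eWAT, by a test of the difference itself, in 36 members. The named ones, as the log2 effect in BAT minus that in eWAT, were *Slc25a33* (−2.68), *Slc25a20* (−2.38), *Slc25a11* (−1.78) and *Slc25a51* (−1.68).

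The rhythm differed between WT and FANKO mice in 5 tests, each of cosine and sine together. Only the call of *Slc25a22* held under every setting tried for it, and each of the others was lost in some settings. The distances given here describe the fitted curves and were not tested themselves. As the peak-to-trough distance in FANKO minus that in WT mice, the log2 differences in BAT were −0.84 for *Slc25a32*, −0.77 for *Slc25a22*, −0.18 for *Slc25a33* and −0.17 for *Slc25a15*. In eWAT it was −1.38 for *Slc25a25*.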

How the results depend on the processing

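The counts of members called for level, depot and interaction stayed within 1.5 times their values under every alternative run. Leaving out each replicate number gave 36 to 39 members in BAT, 23 to 27 in eWAT, 35 to 37 for the interaction, 35 to 37 between WT depots and 23 to 24 between FANKO depots. For rhythms it gave 6 to 12 in WT BAT, 0 to 2 in FANKO BAT, 6 to 9 in WT eWAT, 1 to 2 in FANKO eWAT, and 1 to 3 (BAT) and 0 to 1 (eWAT) differences. With library size alone, 9 members were lower in BAT and higher in eWAT, 0 were rhythmic in FANKO BAT, and 2 (BAT) and 0 (eWAT) rhythms differed. Among the members taken by the rule given above, that scaling turned some signs that were called under at least 1 of the scalings. In BAT these were the log2 changes of *Slc25a22* (0.26), *Slc25a3* (0.20), *Slc25a32* (0.27) and *Slc25a44* (0.34). The depot difference of *Slc25a3* in WT mice (−0.064) and the interaction of *Slc25a29* (0.73) also turned. Members outside that rule are not listed here. The scaling also moved the median of all genes, as given above, and which scaling lies nearer the tissue was not tested. The difference in peak-to-trough distance of *Slc25a33* in BAT lay between −0.404 and 0.062 when each replicate number was left out, the last without replicate 2. Rhythmic members in FANKO BAT numbered 2 with a stricter filter, 0 without the libraries high in muscle markers, 3 with DESeq2 and 5 at a threshold of 0.05. In FANKO eWAT they numbered 4 with separate fits and 7 at 0.05. Differing rhythms in BAT numbered 2 with no filter, 2 with time as a factor and 1 without the muscle-marker libraries; in eWAT 0 without the epididymal-marker libraries, 2 with DESeq2 and 2 at 0.05. The leaving out of marker-high libraries and the depot comparison in FANKO mice were chosen after seeing the data. The cause of the other changes was not tested.

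Same-numbered libraries had low correlations between depots (r from −0.133 to 0.306, median 0.0527, with 10 of 32 pairs over 0.1). Between genotypes r ran from −0.131 to 0.225 (median 0.0517, with 6 of 32 pairs over 0.1). These values do not settle whether a replicate number marks a shared animal or batch. The replicate block gave 39 members in BAT, 28 in eWAT and 36 for the interaction, and 2 rhythmic members in FANKO BAT. Members under 1 CPM are limited by their few reads.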
